A study of Mus musculus with 18 samples.

Results

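Nerve injury and regeneration genes are described here as 9 genes, Atf3, Sprr1a, Gap43, Gadd45a, Sox11, Ecel1, Stmn4, Flrt3 and Smad1, found by their symbols among the 22021 genes listed for mouse dorsal root ganglia. All 9 were listed and all 9 were among the 14214 genes that passed the filter on low values. A sensory neuron whose axon is damaged switches on a set of transcription factors, and these drive genes for growth cone proteins, cytoskeletal regulators and stress responses that allow the axon to regrow. In dorsal root ganglia, which hold the cell bodies of these neurons, Atf3 and Sprr1a are widely used as marks of neurons with a damaged axon. None of the 9 genes passed the test between paclitaxel and normal ganglia, in input or in pulldown, and Sprr1a and Ecel1 had the largest values in the direction of higher expression after paclitaxel.

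The mice carried Nav1.8-Cre and Rosa26fsTRAP on a C57BL/6J background, so that neurons expressing the sodium channel Nav1.8, mostly nociceptors, made the ribosomal protein L10a fused to EGFP. Translating ribosome affinity purification (TRAP) pulls down tagged ribosomes with their bound mRNA, and input is the RNA of the homogenate before the pulldown. Males and females aged 8 to 12 weeks were used, and biosamples 1 to 4 came from normal and 5 to 8 from paclitaxel-treated mice, each with an input and a TRAP library, which gives 4 groups of 4. Paclitaxel, a chemotherapy drug that stabilises microtubules and often damages sensory axons, was injected intraperitoneally 4 times at 4 mg/kg over 8 days, 16 mg/kg in all. The labels give a cremophor vehicle for paclitaxel and do not say whether normal mice received vehicle. The number of animals behind a biosample is not given either, so p-values measure the spread between biosamples. Biosample 7 had 2 subsamples, which were averaged, so 18 libraries became 16. Cre acts from the Nav1.8 locus, so the pulldown is directed at these neurons, and input mixes all neurons with glia and other cells.

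Libraries held 4266013 to 14478025 reads in input and 5972328 to 32713508 in TRAP, and values are in CPM, reads scaled to 1 fixed total per library. Between 13152 and 14043 genes reached 1 CPM in input and between 8081 and 13228 in TRAP. Of 5519 genes with at least 20 CPM in every input library, 68 were at 0 in the pulldown of subsample 1 of biosample 7, 17 in that of biosample 6 and at most 3 in any other, so in those pulldowns genes that are abundant in input can also be at 0. A count of 3 reads, the limit that a count of 0 allows, corresponds to 0.0917 to 0.703 CPM, depending on the library, for counting error only. The 12 nociceptor markers summed to 9278 to 12313 CPM in TRAP and 4879 to 8274 in input. Of these 12 genes, 3 were higher and 2 lower in TRAP than in input in normal mice, and 9 were higher and 0 lower in paclitaxel mice. Of all tested genes, 5.09% were higher and 24.7% lower in normal mice, and 4.92% and 23% in paclitaxel mice. Of 8 pan-neuronal markers, 3 were higher and 3 lower in normal mice, and 4 higher and 3 lower in paclitaxel mice. The 8 markers of myelinating Schwann cells all fell in TRAP in both treatments, from 5935 to 10594 CPM in input to 1925 to 3108 CPM in TRAP. In bulk samples, fewer cells of a type and less RNA per cell cannot be told apart.

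**Figure D1:**
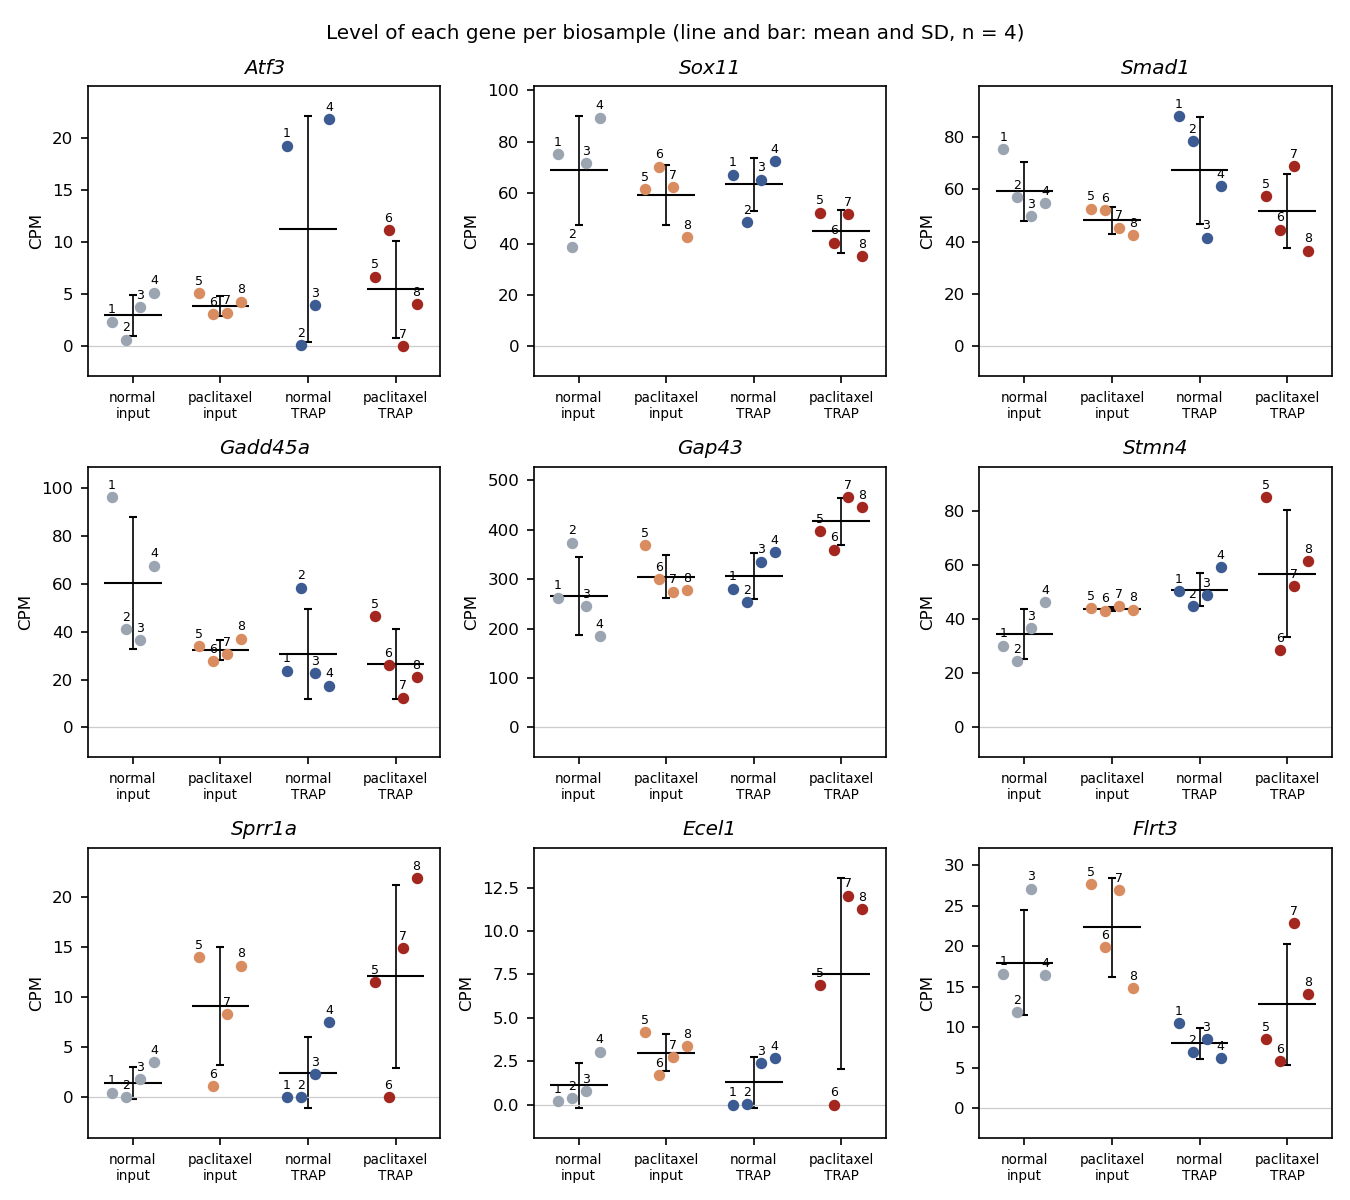
Level of each of the 9 genes in CPM (vertical axis, from about 0) for the 4 groups (horizontal axis). Points are biosamples, numbered, with the subsamples of biosample 7 averaged, and the line and bar are the mean and SD (n = 4). Sprr1a and Ecel1 are near 0 in the pulldowns of biosamples 1, 2 and 6, and Gap43 in TRAP is the only case in which paclitaxel and normal points do not overlap.

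Sprr1a encodes a small proline-rich protein, known from the cornified envelope of skin, that is induced in injured sensory neurons and promotes axon growth. It lies at chr3:92483952-92485895 on the minus strand (GRCm38, GENCODE vM21). In normal input, Sprr1a measured 0.49, 0, 1.86 and 3.52 CPM in biosamples 1 to 4. In paclitaxel input it measured 14, 1.13, 8.31 and 13.16 CPM in biosamples 5 to 8. Biosamples 5, 7 and 8 lay above every normal input, and biosample 6 lay within the normal range, so the groups overlapped. Mean Sprr1a was 9.15 ± 5.91 CPM after paclitaxel and 1.47 ± 1.58 CPM in normal input (SD, n = 4 each). On the log2(CPM + 1) scale, which understates the change of low genes, the difference was 1.94 (SE 0.58, 95% interval 0.70 to 3.19). Its unadjusted p was 0.00477 and its adjusted p by limma with Benjamini-Hochberg adjustment over all tested genes was 0.102, so it did not pass the threshold of 0.05. In this comparison 1.46% of tested genes passed as higher and 0.183% as lower. Without biosample 6 the difference was 2.58 and passed (limma, adjusted p = 0.0171), while over all alternatives its adjusted p ranged from 0.0171 to 0.285.

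The biosamples with low Sprr1a in input, 1, 2 and 6, were also the low ones in the pulldowns. Normal TRAP measured 0, 0, 2.32 and 7.53 CPM in biosamples 1 to 4. Paclitaxel TRAP measured 11.53, 0, 14.94 and 21.94 CPM in biosamples 5 to 8. Biosample 6 was at 0 among 32713508 reads, and the subsamples of biosample 7 gave 0.66 and 29.21 CPM. The pulldowns of biosamples 1, 2 and 6 reached 1 CPM in 9715, 10147 and 10399 genes. Those of biosamples 3, 4, 5 and 8 did so in 12076, 12439, 10884 and 13228, and the subsamples of biosample 7 in 8081 and 11945. The part of these gene numbers in the low Sprr1a values was not tested. The mean was 12.1 ± 9.16 CPM against 2.46 ± 3.55 CPM (SD, n = 4 each), and the log2 difference was 1.83 (SE 1.12, 95% interval -0.58 to 4.24, limma adjusted p = 0.443). In the pulldowns 1.33% of tested genes passed as higher after paclitaxel and 0.492% as lower. Across the 8 biosamples, Sprr1a in input and Sprr1a in TRAP had a Pearson correlation of 0.947, the highest among the 9 genes, from fractions of the same homogenates.

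Ecel1 encodes a membrane metallopeptidase-like protein of the endothelin-converting enzyme family, also called DINE for its induction in damaged neurons. It lies at chr1:87147655-87156521 on the minus strand. Normal input held 0.21, 0.39, 0.76 and 3.05 CPM of Ecel1 in biosamples 1 to 4, and paclitaxel input held 4.19, 1.7, 2.75 and 3.37 CPM in biosamples 5 to 8. Normal TRAP held 0, 0.04, 2.38 and 2.68 CPM, and paclitaxel TRAP 6.88, 0, 12.03 and 11.25 CPM. As for Sprr1a, biosamples 1, 2 and 6 were the low ones in the pulldowns, and paclitaxel and normal overlapped in both fractions. The log2 difference between paclitaxel and normal was 1.06 (SE 0.38, unadjusted p = 0.0141, limma adjusted p = 0.157) in input and 1.65 (SE 0.95, limma adjusted p = 0.414) in TRAP. The normal values of biosamples 1 and 2 were at or close to the limit that a count of 0 allows.

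Sprr1a and Ecel1 moved together from library to library. Over the 16 libraries their log2(CPM + 1) levels had a Pearson correlation of 0.935, and of 14214 tested genes 0 had a higher correlation with either of them. Within the 8 inputs the correlation was 0.902, and 34 genes were more like Ecel1 than Sprr1a was. Within the 8 pulldowns it was 0.979, and 6 genes were. The points share biosamples, homogenates and treatment, and the correlations are given as a description. The pulldowns of biosamples 1, 2 and 6, low in both genes, were among those with the fewest genes at 1 CPM. The part of this in the correlations was not tested. Atf3 did not share this pattern over all libraries, with a correlation of 0.0449 with Sprr1a. Within the 8 inputs it was 0.754, where 856 genes were more like Atf3 than Sprr1a was, and within the 8 pulldowns -0.155. Over the 16 libraries, among genes with a mean of at least 5 CPM, Mrpl16 was the gene most like Sprr1a at 0.907. Taok3 at 0.846 and Mfsd5 at 0.843 followed. For Ecel1 the next after Sprr1a were Mrpl16 at 0.895 and Cyhr1 at 0.885.

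**Figure D2:**
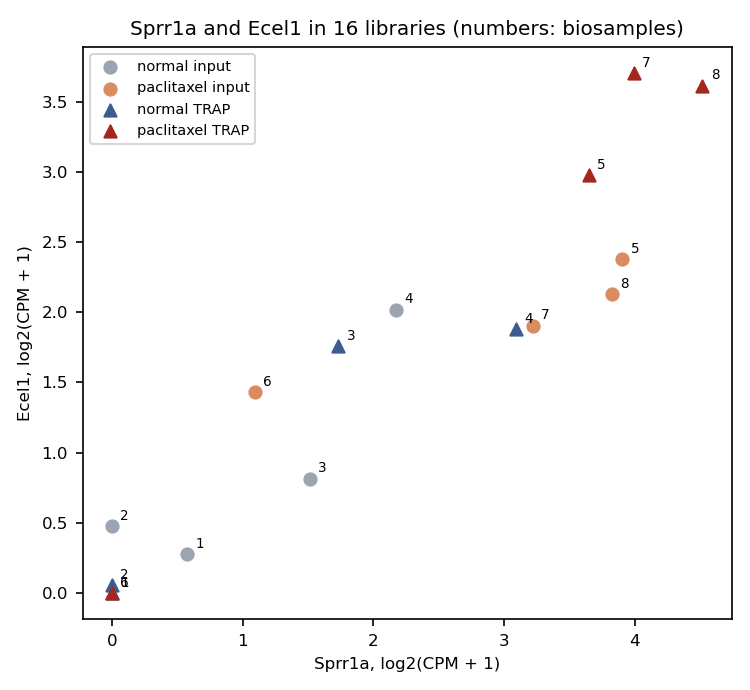
Sprr1a (horizontal axis) against Ecel1 (vertical axis), both as log2(CPM + 1), in the 16 libraries, with circles for input, triangles for TRAP and numbers for biosamples. The pulldowns of biosamples 1, 2 and 6 lie at or next to the origin, and those of biosamples 5, 7 and 8 lie at the upper right.

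Because these 2 genes varied together, their promoters were searched for the AP-1 motif, TGANTCA, bound by Jun and Fos family factors and their ATF partners, and for the CRE-like motif TNACGTCA, on both strands of the 250 bases before and 50 after the RefSeq start site (GRCm38.p6). Windows were found for 7 of the 9 genes, without Gap43 and Stmn4. The AP-1 letters occurred in 7.81% of 32851 promoter windows and the CRE-like letters in 2.93%. Sprr1a held AP-1 matches that begin 146 and 116 bases before the start site, and its stretch from 200 to 51 bases before it, at chr3:92485932-92486081 and read on the minus strand, is shown with these matches in capitals.
Sprr1a: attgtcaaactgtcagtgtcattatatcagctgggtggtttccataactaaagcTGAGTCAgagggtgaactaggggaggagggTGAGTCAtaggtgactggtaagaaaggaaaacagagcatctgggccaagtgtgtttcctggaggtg
The Atf3 window, at chr1:191183284-191183583, held 1 CRE-like match, TTACGTCA, that begins 10 bases before the RefSeq start site used. This window lies inside the Atf3 gene span of chr1:191170296-191218039 (minus strand), whose upstream end was not searched. The windows of Ecel1, Gadd45a, Sox11, Flrt3 and Smad1 held neither set of letters, so the gene most like Sprr1a in level did not share the matches in this window.

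Atf3 encodes a stress-induced transcription factor of the ATF/CREB family that is absent or low in intact sensory neurons and induced after axon injury. It lies at chr1:191170296-191218039 on the minus strand. Atf3 measured 2.37, 0.63, 3.73 and 5.16 CPM in normal input and 5.11, 3.07, 3.22 and 4.28 CPM in paclitaxel input. In the pulldowns it measured 19.26, 0.11, 3.93 and 21.77 CPM in normal biosamples 1 to 4 and 6.68, 11.13, 0 and 4.07 CPM in paclitaxel biosamples 5 to 8. The highest pulldown values were thus in normal biosamples 1 and 4, and both subsamples of biosample 7 were at 0. The log2 difference between paclitaxel and normal was 0.45 (SE 0.38, limma adjusted p = 0.549) in input. In TRAP it was -0.60 (SE 1.15, limma adjusted p = 0.835), with a 95% interval from -3.07 to 1.86 that holds large changes in either direction, and without biosample 7 it was 0.14. The 3 genes most like Atf3 over the 16 libraries were Ilf2 at 0.878, Ssrp1 at 0.866 and Mgat1 at 0.857.

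Sox11, a transcription factor of developing neurons that returns after axon injury and supports regrowth, lies at chr12:27334264-27342574 on the minus strand. It measured 75.21, 38.91, 71.49 and 89.31 CPM in normal input and 61.5, 70.24, 62.15 and 42.69 CPM in paclitaxel input. In TRAP it measured 67.15, 48.5, 65.14 and 72.33 CPM in normal mice and 52.28, 40.5, 51.61 and 35.36 CPM in paclitaxel mice. The pulldown groups overlapped only through normal biosample 2, and the log2 difference of -0.49 (SE 0.32, limma adjusted p = 0.476) did not pass. Smad1, which carries bone morphogenetic protein (BMP) signals to the nucleus and supports axon growth of sensory neurons, lies at chr8:79338395-79399518 on the minus strand. Its means were 59.2 ± 11.1 CPM in normal input, 48.1 ± 5.07 in paclitaxel input, 67.2 ± 20.4 in normal TRAP and 51.8 ± 14.2 in paclitaxel TRAP (SD, n = 4 each). The log2 differences between paclitaxel and normal were -0.28 in input (SE 0.20, limma adjusted p = 0.470) and -0.36 in TRAP (SE 0.35, limma adjusted p = 0.660). The subsamples of biosample 7 gave 109.69 and 27.72 CPM of Smad1 in the pulldown, a wider spread than between the 4 paclitaxel biosamples.

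Gadd45a encodes a stress and DNA-damage response protein that is induced in injured ganglia. It lies at chr6:67035096-67037457 on the minus strand, and the deposited row spans the opposite-strand gene E230016M11Rik too, so that without a stated strand setting reads of the pair cannot be told apart. Gadd45a measured 96.29, 41.03, 36.47 and 67.51 CPM in normal input and 34.02, 27.56, 30.48 and 37.03 CPM in paclitaxel input. Only paclitaxel biosample 8 overlapped the normal inputs, by less than 1 CPM, and the log2 difference was -0.78 (SE 0.28, unadjusted p = 0.0142, limma adjusted p = 0.157). This is the opposite direction to the induction known after nerve injury, and it did not pass the test. In TRAP, normal biosamples measured 23.75, 58.41, 22.73 and 17.41 CPM and paclitaxel biosamples 46.58, 26.01, 12.44 and 20.99 CPM, a log2 difference of -0.19 (SE 0.54, limma adjusted p = 0.896) that was 0.17 without biosample 2.

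Gap43 encodes growth-associated protein 43, a growth cone membrane protein that intact adult nociceptors also express. It lies at chr16:42248442-42340651 on the minus strand and had the highest level of the 9 genes, in reads that carry no division by transcript length. In TRAP, Gap43 measured 281.01, 253.97, 335.69 and 354.8 CPM in normal biosamples 1 to 4 and 396.52, 359.48, 466.4 and 445.63 CPM in paclitaxel biosamples 5 to 8. All 4 paclitaxel pulldowns lay above all 4 normal ones, as for 6.73% of tested genes, with a further 3.57% lying below, and no other of the 9 genes was without overlap in TRAP. The log2 difference was 0.45 (SE 0.22, 95% interval -0.03 to 0.93, limma adjusted p = 0.335), and it was 0.22 with median-ratio scaling and 0.23 by edgeR. In input, Gap43 measured 262.84, 373.89, 245.68 and 184.72 CPM in normal biosamples and 368.28, 299.33, 274.5 and 277.54 CPM in paclitaxel biosamples (log2 difference 0.23, SE 0.23, limma adjusted p = 0.621). All 9 genes overlapped between paclitaxel and normal input, where 8.16% of tested genes lay wholly above and 3.14% wholly below. The 3 genes most like Gap43 over the 16 libraries were Grik1 at 0.877, Adcy5 at 0.875 and Cacnb3 at 0.860.

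Stmn4, a neuronal stathmin that binds tubulin dimers, lies at chr14:66344296-66361680 on the plus strand. It measured 30.26, 24.55, 36.75 and 46.18 CPM in normal input and 44.13, 43.17, 44.69 and 43.45 CPM in paclitaxel input. Normal TRAP held 50.34, 44.81, 48.97 and 59.27 CPM, and paclitaxel TRAP 85.17, 28.64, 52.3 and 61.37 CPM. The paclitaxel inputs were nearly equal, whereas the paclitaxel pulldowns spanned the widest range, and the subsamples of biosample 7 gave 19.87 and 84.74 CPM. The log2 difference between paclitaxel and normal was 0.38 in input (SE 0.22, limma adjusted p = 0.375) and 0.07 in TRAP (SE 0.37, limma adjusted p = 0.955). Flrt3, a leucine-rich repeat membrane protein of axon guidance and adhesion, lies at chr2:140650914-140671469 on the minus strand inside Macrod2, a gene of the opposite strand whose span the deposited row covers, so reads of the pair cannot be told apart. Its means were 18.01 ± 6.48 CPM in normal input, 22.3 ± 6.11 in paclitaxel input, 8.04 ± 1.93 in normal TRAP and 12.8 ± 7.52 in paclitaxel TRAP (SD, n = 4 each). The log2 differences of 0.31 in input (SE 0.29) and 0.48 in TRAP (SE 0.73) had adjusted p-values of 0.583 and 0.788 by limma.

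**Figure D3:**
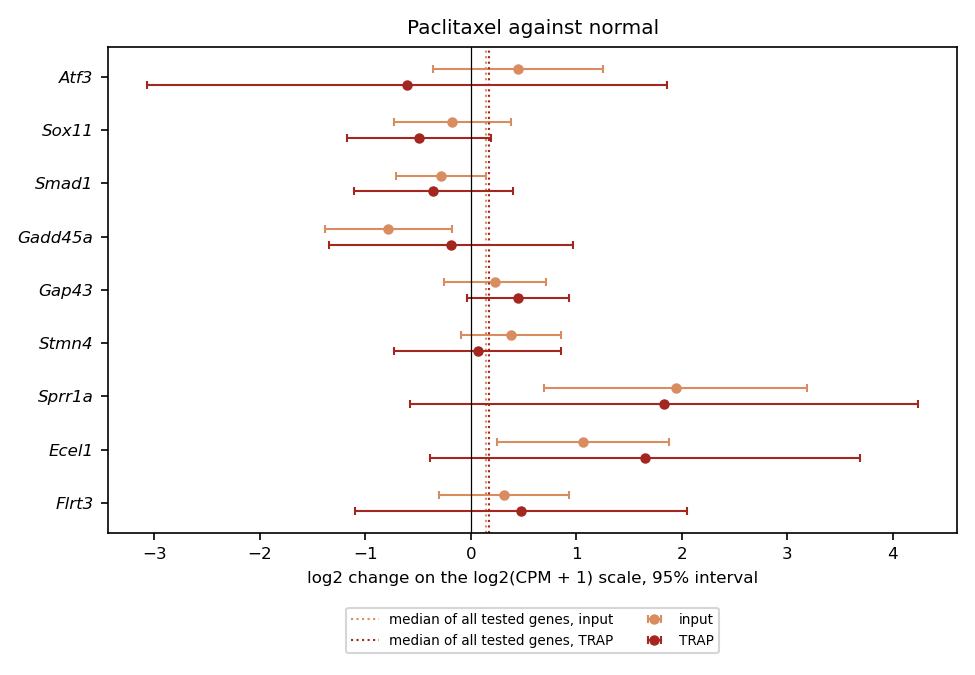
Log2 difference between paclitaxel and normal (horizontal axis, log2(CPM + 1) scale, with 95% intervals, 4 against 4 biosamples) for the 9 genes, in input and in TRAP, with dotted lines at the median of all tested genes. The intervals of Sprr1a and Ecel1 in input lie above 0 and that of Gadd45a in input lies below it, before adjustment over all genes. The TRAP intervals all include 0.

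Between paclitaxel and normal, limma thus passed 0 of the 9 genes in input, with 3 at an unadjusted p under 0.05 (Sprr1a, Gadd45a and Ecel1), where 19.1% of all tested genes were, and edgeR passed 0. In TRAP limma passed 0, with 0 at an unadjusted p under 0.05, where 16.9% of all tested genes were, and edgeR passed 0. Of all 14214 tested genes, edgeR passed 144 in input and 478 in TRAP. The median log2 difference of the 9 genes was 0.31 in input and 0.07 in TRAP, beside 0.14 and 0.17 over all tested genes. The intervals leave room for changes of the size measured, so the genes are not shown to be unchanged.

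Whether the 9 transcripts were over- or under-represented in the pulldown was asked by comparing TRAP with input of the same biosample. In normal mice limma passed 0 of the 9 genes, where 5.09% of tested genes passed as higher and 24.7% as lower. In paclitaxel mice it also passed 0, where 4.92% passed as higher and 23% as lower. At an unadjusted p under 0.05 there was 1 of the 9 genes in each treatment, beside 42.7% of all tested genes in normal and 40.4% in paclitaxel mice. By contrast with limma, edgeR passed 2 genes in normal mice, Gap43 and Stmn4, and 1 in paclitaxel mice, Gap43. Of all 14214 tested genes, edgeR passed 1864 in normal mice, 67.2% of them as higher, and 1915 in paclitaxel mice, 60.0% of them as higher. The median log2 difference of the 9 genes was 0.14 in normal mice and 0.03 in paclitaxel mice, beside -0.66 and -0.56 over all tested genes, so their median lay above that of all genes.

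Gap43 was higher in TRAP than in input in 3 of 4 normal and 4 of 4 paclitaxel biosamples. Its log2 difference was 0.23 (SE 0.21, limma adjusted p = 0.409) in normal and 0.45 (SE 0.21, limma adjusted p = 0.111) in paclitaxel mice. With median-ratio scaling these were 0.67 (limma adjusted p = 0.0229) and 0.77 (limma adjusted p = 0.00993), so the call depends on how libraries are scaled. Without biosample 4 the normal value of Gap43 was -0.0038. Stmn4 was higher in TRAP in 4 of 4 normal biosamples, with a log2 difference of 0.58 (SE 0.31, limma adjusted p = 0.157), and 1.01 with median-ratio scaling (limma adjusted p = 0.0252). Atf3 had the highest normal value, 0.99 (SE 0.70, limma adjusted p = 0.278), from biosamples that ranged from 0.11 to 21.77 CPM in the pulldown. Flrt3 was lower in TRAP in all 8 biosamples, with log2 differences of -1.04 (SE 0.53, limma adjusted p = 0.136) and -0.88 (SE 0.53, limma adjusted p = 0.220). Gadd45a was lower in 3 of 4 biosamples in each treatment, at -1.01 (SE 0.41, unadjusted p = 0.0220, limma adjusted p = 0.0650) in normal mice and -0.41 (SE 0.41) in paclitaxel mice. Without biosample 2 the normal value of Gadd45a was -1.51 and passed (limma, adjusted p = 0.0154). Sox11, Smad1, Sprr1a and Ecel1 had normal values between -0.07 and 0.14.

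**Figure D4:**
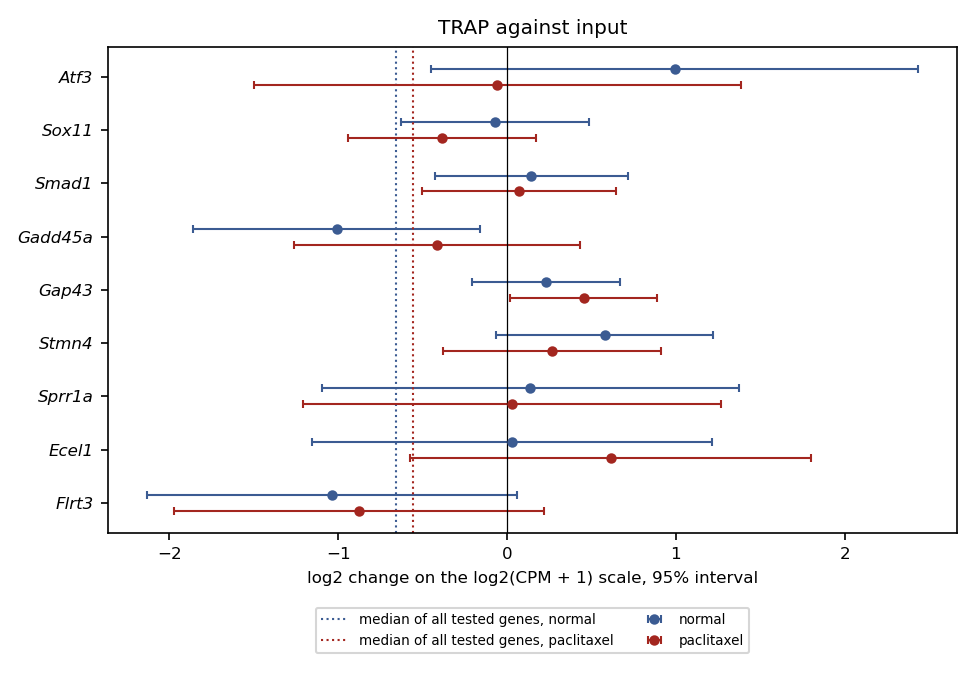
Log2 difference between TRAP and input of the same biosamples (horizontal axis, log2(CPM + 1) scale, with 95% intervals, 4 pairs per treatment) for the 9 genes in normal and paclitaxel mice. Dotted lines mark the medians of all tested genes, -0.66 and -0.56. Flrt3, Gadd45a and Sox11 lie below 0 in both treatments.

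The difference between treatments in TRAP against input was tested as an interaction. It passed in 0 of the 9 genes by limma, where 0.162% of tested genes passed as higher and 0.0281% as lower. At an unadjusted p under 0.05 by limma there were 0 of the 9, beside 11.3% of all tested genes. By edgeR 0 of all 14214 tested genes passed, and so 0 of the 9. Atf3 had the largest value, -1.05 (SE 0.99, limma adjusted p = 0.732), followed by Gadd45a at 0.59 (SE 0.58) and Ecel1 at 0.59 (SE 0.81).

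The wider injury response was described with 6 lists of 86 genes, of which 77 were tested: transcription factors, growth cone and cytoskeletal genes, secreted factors, receptors and enzymes, relatives of the 9 genes, and the BMP pathway. Between paclitaxel and normal, 1 of the 77 rose and 0 fell in TRAP, and 1 rose and 0 fell in input. That is 1.3% of the list genes in each fraction, close to the 1.33% and 1.46% of all tested genes that rose. The median log2 difference of the 77 was 0.42 in TRAP and 0.16 in input, beside 0.17 and 0.14 over all tested genes. The list of receptors, adhesion molecules and enzymes had the highest median in TRAP, 0.79 over 17 tested genes, of which 1 passed.

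That gene was Cd44, an adhesion receptor for hyaluronan. Cd44 measured 167.8, 142.7, 241.4 and 102.3 CPM in normal TRAP and 491.3, 432.6, 383.3 and 252.3 CPM in paclitaxel TRAP, without overlap. Its log2 difference in TRAP was 1.27 (SE 0.30, limma adjusted p = 0.0467), and in input it was -0.02 (SE 0.28, limma adjusted p = 0.983). The interaction of Cd44 was 1.29 (SE 0.27, limma adjusted p = 0.0420): it fell in TRAP against input in normal mice, by 0.65, and rose in paclitaxel mice, at 0.63. The TRAP difference passed in 4 of 19 alternatives and was 0.67 (limma adjusted p = 0.594) without the pulldowns with the fewest genes. The nociceptor marker Calca also rose in TRAP after paclitaxel, by 1.78 on the log2 scale, and its interaction was 1.725 (limma adjusted p = 0.00660). Of the 12 nociceptor markers, 2 passed as higher and 0 as lower in TRAP after paclitaxel, with 9 values above 0 and 3 below. The neurotrophin receptor Ngfr, listed here as a repair Schwann cell marker, rose in TRAP as well, by 2.04. The other 4 tested markers of that list did not pass between treatments in TRAP, and 3 of them had values below 0. Between TRAP and input, Ngfr was at -0.54 (limma adjusted p = 0.145) in normal and 0.82 (limma adjusted p = 0.0350) in paclitaxel mice. Most of the list's summed level was Ngfr. The other 6 genes together ran from 6.64 to 14.9 CPM in normal TRAP and from 0.275 to 25.4 CPM in paclitaxel TRAP. The part of these changes in the Cd44 value was not tested.

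Id3, an inhibitor of DNA binding that is a direct target of BMP and Smad1 signalling, was the gene that rose in input. Id3 measured 31.58, 37.26, 86.48 and 27.43 CPM in normal input and 160.7, 141.1, 124.8 and 99.75 CPM in paclitaxel input, a log2 difference of 1.64 (SE 0.31, limma adjusted p = 0.0228). The other 13 genes of the BMP list did not pass in input, and Smad1 itself was at -0.28. In input the satellite glia markers Fabp7 and Slc1a3 rose as well, by 1.99 and 1.69, 2 of 8 genes of that list, while the summed list ran from 654.5 to 1525 CPM in normal and from 833.1 to 1120 CPM in paclitaxel input. Of the 8 pan-neuronal markers in input, Uchl1 fell by 1.14 and the others did not pass, with 6 of the 8 values below 0 and 2 above. Of the 6 endothelial markers, Kdr rose by 0.91 and the others did not pass, with 4 of the 6 values above 0 and 2 below. Fabp7 and Slc1a3 each passed in 13 of 19 alternatives, Uchl1 in 7 and Kdr in 6, and the part of these changes in the Id3 value was not tested. Id3 passed in 12 of 19 alternatives.

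**Figure D5:**
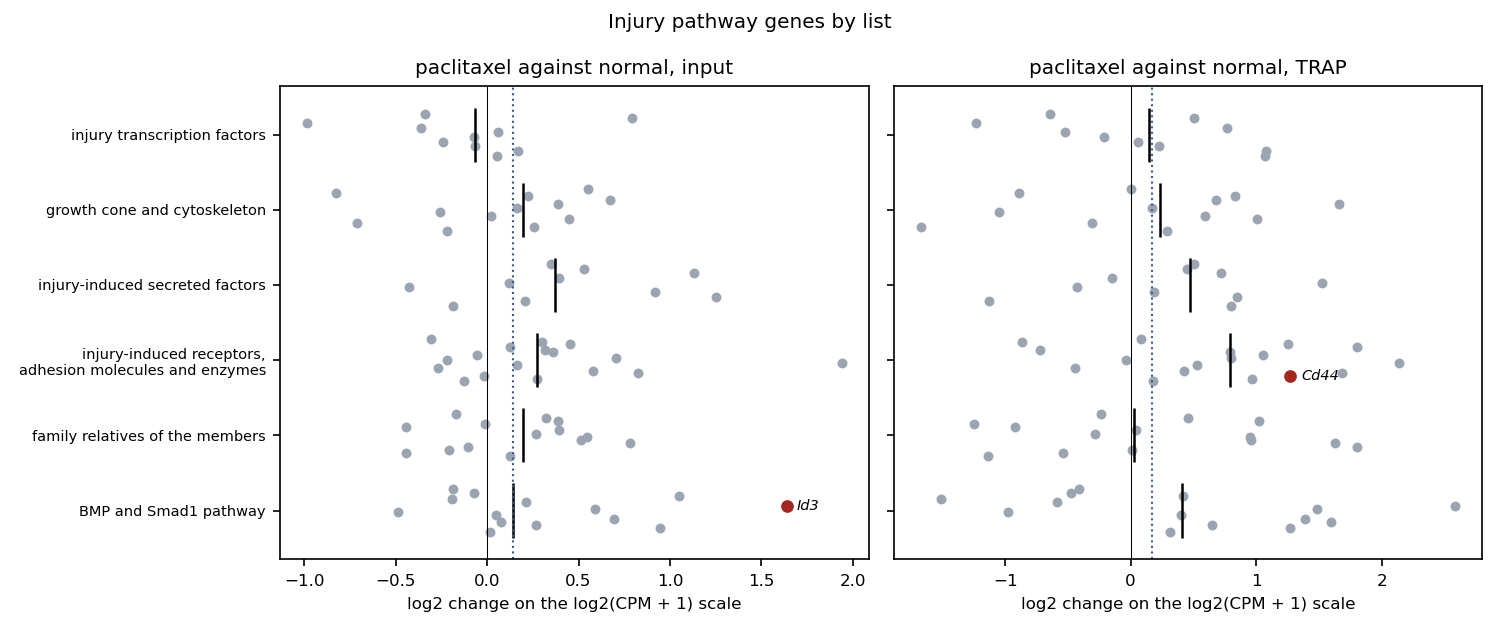
Log2 difference between paclitaxel and normal (horizontal axes, log2(CPM + 1) scale) of the tested genes of the 6 injury lists (rows), in input (left) and TRAP (right). Each point is a gene, red and named where it passed, black bars are list medians and the dotted line is the median of all tested genes. Id3 in input and Cd44 in TRAP are the genes that passed.

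Between fractions, 3 of the 77 genes were higher and 25 lower in TRAP than in input in normal mice, and 11 were higher and 21 lower in paclitaxel mice. These are 3.9% higher and 32.5% lower in normal mice, beside 5.09% and 24.7% of all tested genes, and 14.3% higher and 27.3% lower in paclitaxel mice, beside 4.92% and 23%. Higher genes included the tubulin Tubb2b, at 0.67 in normal and 1.28 in paclitaxel mice (limma adjusted p = 0.0265 and 0.000338), and the stathmin Stmn3, at 0.81 and 0.74 (limma adjusted p = 0.00181 and 0.00406). The neuropeptide gene Gal, at 1.10, and the adhesion molecule L1cam, at 0.96, passed in paclitaxel mice (limma adjusted p = 0.0225 and 0.00376). Of the BMP list, 7 of 14 genes fell in TRAP in normal and 6 of 14 in paclitaxel mice, beside the same 24.7% and 23% of all tested genes, among them the receptor Bmpr2, with log2 differences of -1.56 and -1.21, and Id3, with -2.73 and -1.78. Of the transcription factors, 5 of 10 fell in normal and 4 of 10 in paclitaxel mice, beside those same shares, among them Cebpd, with -3.55 and -2.63, and Klf6, with -0.92 and -1.504. The membrane-associated growth cone protein gene Marcks fell as well, with -1.84 and -1.83. The share of all called genes that was higher in TRAP moved from 17.1% to 45.1% in normal and from 17.6% to 39.3% in paclitaxel mice with median-ratio scaling, so direction counts in this comparison follow the scaling.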

How the data were processed

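QuantSeq 3′ end libraries of input and TRAP fractions were used. Per the submitters' processing notes the tools included Cufflinks 2.2.1, TopHat2 2.1.1, FastQC 0.11.5 and Bowtie2 2.2.9, and the build was GRCm38.p4, and per the file headers gene models were GENCODE vM10. The deposited values are named TPM in the file headers but are CPM: every column has the same sum, and 98.0% to 99.0% of its values above 0 are whole multiples of the worth of 1 read (tolerance 0.0051 CPM). The design named TPM, and the same steps were applied to CPM. The authors' 2 merged columns for biosample 7 were not used.

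Genes reaching 1 CPM in 4 or more of 16 libraries were tested as log2(CPM + 1) with limma 3.58.1 (intensity trend, R 4.3.3), two-sided, passing at a Benjamini-Hochberg adjusted p under 0.05 over all 14214 genes. TRAP against input and the interaction used biosample as a block, since input and pulldown came from 1 homogenate; deviations of the paired libraries correlated at 0.0534 to 0.376. Paclitaxel against normal was fitted per fraction. Reads recovered for all libraries from these multiples were tested with edgeR 4.0.16. The procedure was tested on simulated data.

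The 9 genes, the lists and the alternatives were chosen with earlier results of these data known. Named list genes are those that passed between treatments or in the interaction, and up to 4 per list between fractions; for each of the 9, the 3 most correlated genes were taken, and the text gives a part of these. The result of 1 further listed gene is not reported here.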

Additional observations from a re-analysis of the deposited data

Results flagged for a closer look

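In normal TRAP, Gadd45a measured 58.41 CPM in biosample 2, far from the other 3 biosamples at 17.41 to 23.75 CPM. It was the 1 such sample among 36 gene and group combinations examined with Dixon's ratio, where chance alone marks about 1 in 20. The difference of Cd44 between TRAP and input differed between treatments, by 1.29 on the log2 scale (interaction, limma adjusted p = 0.0420), and passed in 5 of 20 alternatives. The interaction of the nociceptor marker Calca, 1.725 (limma adjusted p = 0.00660), was larger and passed in 14 of 20 alternatives.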

How the results depend on the processing

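Of 877 member values recomputed under 20 alternatives, 810 kept their direction and their side of the threshold, 14 newly passed and 53 changed sign, with 0 of these 53 passing. The causes were not tested. The 3-read limit leaves Sprr1a, Ecel1 and Atf3 the least precise.

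Of the 9 genes, those passing between TRAP and input in normal mice were 2 with median-ratio scaling, 2 with quantile normalization (Atf3 and Stmn4), 2 by edgeR, 2 without the pulldowns with the fewest genes (an alternative added after seeing the data, leaving biosamples 3, 4, 8 and subsample 2 of biosample 7), and 0 to 1 with a biosample left out. In paclitaxel mice 1 passed with each of these 4 (Ecel1 with quantile normalization, otherwise Gap43). Between treatments in input 0 to 1 passed with a biosample left out. Leaving out the pulldowns with the fewest genes also left out the inputs that belong to them, so 2 biosamples per treatment remained.

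Over all genes, 4233 passed between TRAP and input in normal mice, and 2695 with quantile normalization, 2785 with subsample 1 of biosample 7 alone, 1864 by edgeR, 2475 without the pulldowns with the fewest genes and 2327 to 4356 with a biosample left out. In paclitaxel mice 3963 passed, and 1915 by edgeR, 1531 without those pulldowns and 2049 to 4377 with a biosample left out. For the interaction 27 passed, and 13 with pseudocount 0.1, 6 with quantile normalization, 5 and 17 with subsample 1 or 2 alone, 0 with no filter, no intensity trend, edgeR or without those pulldowns, and 0 to 86 with a biosample left out. Between treatments in TRAP 259 passed, and 729 with a filter of 5 CPM, 523 with quantile normalization, 100 with subsample 1 alone, 478 by edgeR, 0 with no filter, no intensity trend or without those pulldowns, and 0 to 491 with a biosample left out (0 without biosample 2 or 8). In input 233 passed, and 107 with quantile normalization, 144 by edgeR, 0 with no filter, and 0 to 831 with a biosample left out (0 without biosample 1). In the inputs of the biosamples kept without those pulldowns 0 passed. At an unadjusted p under 0.05, limma's 0 with no filter stood beside 1737, 2372 and 2962 genes for the interaction, TRAP and input. Without the replicate block 3287 and 3119 genes passed between TRAP and input and 0 for the interaction, and it moved no member across the threshold. The share of calls that were higher moved from 73.0% to 46.4% in TRAP and from 88.8% to 75.8% in input with median-ratio scaling, to 40.4% and 68.1% by edgeR, and to 58.7% in TRAP with quantile normalization; between fractions it was 67.2% and 60.0% by edgeR and 48.5% and 47.6% with quantile normalization. Quantile normalization shifted the median of all genes by 0.66 and 0.60 between fractions, and median-ratio scaling by 0.33 and 0.27.

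Sign changes of values that did not pass were as follows, on the log2 scale. Between TRAP and input in normal mice, Sprr1a was at -0.30 and Ecel1 at -0.52 with pseudocount 0.1, Sox11 at 0.36 with median-ratio scaling and 0.20 with quantile normalization, and Sprr1a at -0.0881, Sox11 at 0.45 and Ecel1 at -0.67 by edgeR. Smad1 was at -0.048 there, and the listed gene Flrt1 at 0.13, without the pulldowns with the fewest genes. In paclitaxel mice, Sprr1a was at -0.58 with pseudocount 0.1, -0.58 with subsample 1 alone and -0.095 by edgeR. Atf3 was at 0.11 with pseudocount 5, 0.17 with median-ratio scaling, 0.98 with quantile normalization, 0.12 with subsample 1 alone and 0.043 by edgeR. Stmn4 was at -0.032 with subsample 1 alone, and Smad1 at -0.15 with subsample 2 alone and -0.25 without those pulldowns. For the interaction, Sprr1a was at 0.035 with pseudocount 5, 0.0030 with median-ratio scaling, 0.13 with quantile normalization and 0.37 without those pulldowns, where Gadd45a was at -0.036 and Stmn4 at 0.25; Smad1 was at 0.016 with subsample 1 alone. Between treatments, Stmn4 in TRAP was at -0.16 with median-ratio scaling, -0.11 with quantile normalization, -0.27 with subsample 1 alone and -0.054 by edgeR. Flrt3 in input was at -0.45 in the biosamples kept without those pulldowns. With a biosample left out, values between TRAP and input ran from -0.12 to 0.38 (Sprr1a), -0.0038 to 0.49 (Gap43), -0.20 to 0.0057 (Sox11) and -0.28 to 0.18 (Ecel1) in normal mice, and from -0.60 to 0.62 (Atf3), -0.22 to 0.40 (Sprr1a) and -0.10 to 0.17 (Smad1) in paclitaxel mice. Interactions ran from -0.36 to 0.26 (Sprr1a), -0.041 to 0.46 (Gap43), -0.11 to 0.41 (Flrt3) and -0.25 to 0.029 (Smad1). Between treatments in TRAP they ran from -1.50 to 0.14 (Atf3), -0.50 to 0.17 (Gadd45a) and -0.16 to 0.35 (Stmn4).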
